A study of Mus musculus with 30 samples.

Results

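The 9 genes described here are 3 keratins of simple epithelia (Krt8, Krt18 and Krt19) and 6 transcription factors of the trophoblast lineage (Tfap2c, Gata3, Hand1, Ascl2, Elf5 and Tead4). They were chosen by symbol, as every row of the non-normalized signal table that carries one of these names, out of 18097 gene symbols on the array. The rule found 12 probes for 8 of the genes, and 3 probes for Tfap2c were found under its older symbol Tcfap2c, which makes 15 probes in all. Of these, 10 probes for 7 genes passed the filter on detection, and Hand1 and Elf5 were detected on 0 of 30 arrays.

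The study asked what regulators of phosphorylation do for mouse embryonic stem cells (ESCs). All cells were of the Ainv15 line, which expresses the doxycycline (Dox)-dependent activator rtTA. Each rescue clone carried a lentiviral shRNA against 1 endogenous mRNA (Bub1b_R, Chek1_R, Ppm1g_R and Ppp2r1b_R) together with a Dox-dependent copy that the shRNA does not recognize, and Ctrl_R was the control rescue clone. Total RNA from each of the 5 clones was measured on Illumina mouse BeadChips with 1 μg/ml Dox (+Dox) and after 5 days without it (-Dox), in medium with LIF, with 3 arrays for each of the 10 conditions. The study established several clones for each gene, and the labels name a rescue clone by its gene and do not say which of them was used, so clone and targeted gene cannot be told apart. The cells had been kept on mouse embryonic fibroblasts and were freed of them before RNA was made. Whether the 3 arrays of a condition are separate clones or cultures is not stated, so p-values measure the spread between these arrays, which may be technical.

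In the blastocyst the trophectoderm is the first epithelium, and it goes on to form the trophoblast of the placenta. Krt8 and Krt18 encode a type II and a type I keratin that pair into the filaments of simple epithelia, and Krt19 is another type I keratin of the same cells. Tead4 acts with the Hippo effectors Yap1 and Wwtr1 at the top of the trophectoderm program, Tfap2c and Gata3 act beside Cdx2, Elf5 maintains trophoblast stem cells, Ascl2 maintains progenitors of the spongiotrophoblast and Hand1 promotes trophoblast giant cells. ESCs are held apart from this lineage, and Krt8, Krt18, Tfap2c and Tead4 are nevertheless known to be transcribed in many ESC lines.

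Between 11733 and 13685 probes were detected per array. The arrays fell into 2 sets by brightness. Bub1b_R and Ctrl_R made up the dimmer set of 12 arrays, whose lowest signal called detected was 12.9 to 20.9. The other 18 arrays held Chek1_R, Ppm1g_R and Ppp2r1b_R, and there it was 27.8 to 58.1. A comparison of Chek1_R, Ppm1g_R or Ppp2r1b_R with Ctrl_R therefore crosses the sets, and set and clone cannot be told apart there, whereas Bub1b_R against Ctrl_R and every comparison of -Dox with +Dox in 1 clone stay within a set by brightness. The records of the Ctrl_R arrays are numbered apart from those of the other clones, and the study lists earlier public arrays among its data, so the Ctrl_R arrays may have been run at another time. In every comparison with Ctrl_R, that of Bub1b_R included, such a difference and the clone cannot be told apart. Levels below are log2 normalized signals, and differences are log2 changes. An offset of 16 was added to the background-corrected signal before the log, and alternatives added 50 or 200, which shrinks the changes of dim genes. A gene is called changed when its adjusted p from limma (Benjamini-Hochberg over all 15151 tested probes) was under 0.05 and its change was at least 1.5-fold.

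As a check of the labels, Ppm1g fell by 1.25 on the log2 scale on Dox withdrawal in Ppm1g_R (limma, adjusted p = 4.5e-09). Bub1b and Ppp2r1b did not pass the test in their own clones, at -0.14 and 0.20 (limma, adjusted p = 0.217 and 0.365). Chek1 went against its label. It was detected on 3 of 3 arrays labelled Chek1_R -Dox and on 0 of 3 labelled +Dox, which makes it at least 1.35-fold higher when Dox was absent (limma, adjusted p = 0.00115). This is the brightest of 3 Chek1 probes. The second was detected on 1 of 3 -Dox and 0 of 3 +Dox arrays with this label, and the third on 0 of 30 arrays. Against Ctrl_R, Chek1 was lower in both conditions, by limma at -1.07 without Dox (adjusted p = 3.1e-06) and at least 3.02-fold with Dox (adjusted p = 1.3e-09). Against Ctrl_R, Ppp2r1b gave -0.25 without Dox (limma, adjusted p = 0.158) and -0.61 with it (adjusted p = 0.0012). Bub1b gave -0.67 without and -0.70 with Dox, and Ppm1g -1.74 and -0.33. The 4 clones are called targeted below by their labels, and lower levels of the targeted mRNA without Dox than with it passed the test in Ppm1g_R alone. In this design only the rescue copy depends on Dox, and the shRNA is present in both conditions. A probe that does not read the copy thus cannot show its loss on withdrawal. Whether these probes read the copies is not known, so the lack of a fall leaves a label unchecked. Chek1_R below stands for the arrays that carry this label.

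On Dox withdrawal the 3 keratins rose in each of the 4 targeted clones, and Gata3 rose in 3 of them. The Gata3 calls were lost with an offset of 200 and, in Ppp2r1b_R, by the test of the study's methods. In Ppm1g_R the call of Krt19 was lost with an offset of 200 (0.53) and that of Krt18 with median scaling (0.50). Of the 10 member probes that passed the filter, 4 were changed in Bub1b_R, where 5.60% of all tested probes were, 4 among arrays labelled Chek1_R (9.27% of all), 3 for Ppm1g_R (4.37%) and 4 for Ppp2r1b_R (4.82%). In Ctrl_R 0 of the 10 were changed (1.10% of all). There 4 had an unadjusted p under 0.05 by limma, a threshold for which no share of all tested probes is given. Every changed member probe was higher without Dox. Over all tested probes, 78 were higher in each of the 4 targeted clones (0.515%), and Krt8, Krt18 and Krt19 are 3 of them. In these bulk RNA samples, more cells that express a gene and more RNA of it per cell cannot be told apart.

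**Figure D1:**
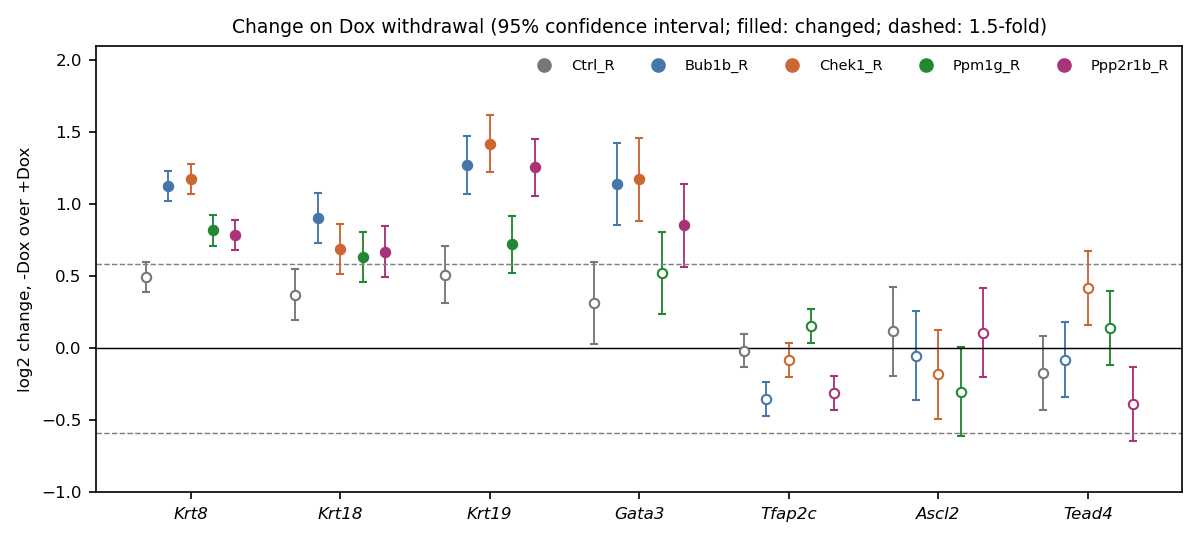
Log2 change of the brightest probe of each detected member on Dox withdrawal (-Dox over +Dox, vertical axis) in the 5 clones, with 95% confidence intervals from limma over 3 against 3 arrays. Filled points were changed, dashed lines mark 1.5-fold. Krt8, Krt18, Krt19 and Gata3 lie above 0 in every clone, with Ctrl_R the lowest point for each, and the points of Tfap2c, Ascl2 and Tead4 lie on both sides of 0.

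Krt8 was the clearest case. It read 10.11, 10.23 and 10.20 on the Ctrl_R +Dox arrays and 10.62, 10.69 and 10.70 on the Ctrl_R -Dox arrays. In Bub1b_R it read 11.61, 11.54 and 11.53 with Dox and 12.67, 12.71 and 12.68 without. On the arrays labelled Chek1_R it read 11.69, 11.65 and 11.67 with Dox and 12.83, 12.80 and 12.89 without. In all 3 clones the -Dox arrays lay above every +Dox array of the same clone, and the targeted clones lay above Ctrl_R in both conditions. Krt8 read 12.41, 12.32 and 12.32 in Ppm1g_R with Dox and 13.22, 13.14 and 13.14 without. In Ppp2r1b_R it read 12.38, 12.29 and 12.28 with Dox and 13.05, 13.12 and 13.13 without. Here the +Dox arrays already lay above both conditions of Ctrl_R, and the groups again did not overlap.

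On withdrawal Krt8 rose by 1.13 (SE 0.05, limma, adjusted p = 9.2e-14) in Bub1b_R and by 1.17 (adjusted p = 4.4e-15) among arrays labelled Chek1_R. The rise was 0.82 for Ppm1g_R and 0.79 for Ppp2r1b_R (limma, adjusted p = 5.4e-11 and 6.6e-11). In Ctrl_R Krt8 was 0.49 higher without Dox (limma, adjusted p = 9.4e-07), which is under the 1.5-fold limit. The change exceeded that of Ctrl_R by 0.64 (limma, adjusted p = 2.1e-06) in Bub1b_R and by 0.68 (adjusted p = 1.7e-07) among arrays labelled Chek1_R. In Ppm1g_R and Ppp2r1b_R the excess of 0.33 and 0.29 passed the p threshold (limma, adjusted p = 0.0033 and 0.0118) but not 1.5-fold.

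Krt18 was also higher without Dox in each clone. It read 9.64, 9.32 and 9.60 on the Ctrl_R +Dox arrays and 9.92, 9.86 and 9.90 on the Ctrl_R -Dox arrays. In Bub1b_R Krt18 read 10.35, 10.42 and 10.49 with Dox and 11.27, 11.34 and 11.35 without. The arrays labelled Chek1_R gave 11.10, 10.93 and 10.81 with Dox and 11.69, 11.63 and 11.59 without. Each -Dox group lay above its +Dox group, and Ctrl_R lay lowest. In Ppm1g_R Krt18 read 11.36, 11.31 and 11.21 with Dox and 12.10, 11.90 and 11.80 without. In Ppp2r1b_R it read 11.47, 11.49 and 11.30 with Dox and 12.08, 12.12 and 12.07 without, again with no overlap. Krt18 rose by 0.90, 0.69, 0.63 and 0.67 in Bub1b_R, Chek1_R, Ppm1g_R and Ppp2r1b_R (SE 0.08, limma, adjusted p = 2.3e-08, 6.9e-07, 5.8e-06 and 3.2e-06). The value in Ppm1g_R is near the 1.5-fold limit and was 0.50 with median scaling and 0.55 without the first -Dox array of Ppm1g_R. In Ctrl_R Krt18 was 0.37 higher (limma, adjusted p = 0.0076), and in none of the 4 clones did its change exceed that of Ctrl_R by 1.5-fold. The nearest was Bub1b_R, with an excess of 0.53 (limma, adjusted p = 0.0042), which was 0.64 with median scaling and 0.63 without the second +Dox array of Ctrl_R.

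Krt8 and Krt18 lie head to head on mouse chromosome 15, and their annotated starts are 23874 bases apart in GRCm38.p6. As the 2 genes moved together, the 250 bases before each start are shown, from RefSeq, 5′ to 3′ on the strand of the gene. They are chr15:102004343-102004592 (minus strand) for Krt8 and chr15:102027966-102028215 (plus strand) for Krt18. Capitals mark matches on either strand to letters bound by GATA factors (AGATAA or TGATAA), by TFAP2 factors (GCCNNNGGC) or by TEAD factors (GGAATG).
Krt8: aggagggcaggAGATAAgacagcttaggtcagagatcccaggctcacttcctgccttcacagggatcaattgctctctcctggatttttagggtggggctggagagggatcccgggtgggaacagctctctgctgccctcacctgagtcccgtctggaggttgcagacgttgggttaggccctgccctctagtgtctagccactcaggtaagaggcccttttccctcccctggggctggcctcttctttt
Krt18: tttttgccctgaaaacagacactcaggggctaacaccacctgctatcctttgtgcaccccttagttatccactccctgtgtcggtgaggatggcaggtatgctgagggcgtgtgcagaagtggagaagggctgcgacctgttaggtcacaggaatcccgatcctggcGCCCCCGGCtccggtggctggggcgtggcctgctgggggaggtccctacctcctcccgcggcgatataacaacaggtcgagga
The Krt8 window held 1 AGATAA match, at position -239 from the start, and 0 of the other letters. The Krt18 window held 1 GCCNNNGGC match, at position -83, and 0 of the others. Among 32851 RefSeq promoter windows of 300 bases (250 before to 50 after the start), 11.2% held AGATAA, 9.1% TGATAA, 16.6% GCCNNNGGC and 14.7% GGAATG, and the letters CANNTG of bHLH factors, found 3 times for Krt8 and 1 time for Krt18 in such a window, stood in 72.3%. The 2 windows share none of the marked letters, and a match is a description of the sequence and not a binding site. The window of Gata3 on chromosome 2 held 3 GCCNNNGGC matches, GCCCGCGGC at position -246, GCCCTAGGC at -231 and GCCCTTGGC at -221. That of Ascl2 on chromosome 7 held 0 matches other than 2 of CANNTG. Windows for 5 of the 9 genes stood in the table.

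Krt19 was higher without Dox in each clone as well. It read 7.66, 7.84 and 7.70 on the Ctrl_R +Dox arrays and 8.15, 8.35 and 8.22 on the Ctrl_R -Dox arrays. In Bub1b_R Krt19 read 8.34, 8.26 and 8.40 with Dox and 9.53, 9.59 and 9.69 without. The arrays labelled Chek1_R gave 8.00, 7.75 and 8.06 with Dox and 9.47, 9.37 and 9.23 without. With Dox the arrays labelled Chek1_R overlapped those of Ctrl_R, and without Dox they stood clear of them. In Ppm1g_R Krt19 read 8.64, 8.62 and 8.52 with Dox and 9.25, 9.49 and 9.20 without. In Ppp2r1b_R it read 8.87, 8.86 and 8.52 with Dox and 10.01, 10.00 and 10.01 without, the highest of the 10 conditions. Krt19 rose by 1.27, 1.42, 0.72 and 1.26 in the same 4 clones (SE 0.10, limma, adjusted p = 7.3e-10, 2.8e-11, 5.5e-06 and 1.3e-09). The value in Ppm1g_R was 0.53 with an offset of 200, under 1.5-fold. In Ctrl_R Krt19 was 0.51 higher (limma, adjusted p = 0.0017). The change exceeded that of Ctrl_R by 0.76 in Bub1b_R, 0.91 among arrays labelled Chek1_R and 0.75 in Ppp2r1b_R (limma, adjusted p = 5.2e-04, 2.9e-05 and 0.0012). The excess was 0.21 in Ppm1g_R (95% confidence interval -0.07 to 0.49, limma, adjusted p = 0.35).

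Gata3, a zinc finger factor that promotes the trophectoderm fate when raised in ESCs, was dim and was detected on 23 of 30 arrays. It read 5.04, 5.07 and 5.01 on the Ctrl_R +Dox arrays, all 3 below detection. It read 5.33, 5.09 and 5.63 on the Ctrl_R -Dox arrays, of which the third was detected. In Bub1b_R Gata3 read 6.05, 6.28 and 5.74 with Dox and 7.28, 7.12 and 7.10 without. The control clone was thus at or near background, and Bub1b_R was detected on all 6 arrays. On the arrays labelled Chek1_R it read 5.52, 5.61 and 5.55 with Dox, detected on 1 of 3, and 6.80, 6.67 and 6.73 without. In Ppm1g_R Gata3 read 7.25, 7.21 and 7.33 with Dox and 7.70, 7.91 and 7.74 without. In Ppp2r1b_R it read 6.29, 7.01 and 6.75 with Dox and 7.51, 7.52 and 7.57 without. The -Dox arrays lay above the +Dox arrays in each of these clones, and the +Dox arrays of Ppp2r1b_R were the most spread. Gata3 rose by 1.14 (SE 0.14, limma, adjusted p = 9.9e-07) in Bub1b_R and by 0.85 (adjusted p = 7.1e-05) in Ppp2r1b_R. Among arrays labelled Chek1_R it was changed as well (limma, adjusted p = 3.4e-07). The fitted 1.17 there is no measured size, since 1 of 3 +Dox arrays was detected. An offset of 200 was an alternative chosen after the low signal of Gata3 was seen. With it the values were 0.39, 0.33 and 0.36 in Bub1b_R, Chek1_R and Ppp2r1b_R, under 1.5-fold. The call in Ppp2r1b_R was also lost by the test of the study's methods. In Ppm1g_R it was 0.52 higher (limma, adjusted p = 0.0075), under 1.5-fold, from the highest +Dox level of the 5 clones. In Ctrl_R the fitted difference was 0.31 (limma, adjusted p = 0.184), which is no measured size because the probe was at or near background. Without background correction it was 1.07 and was called changed. The fitted excess over Ctrl_R was 0.83 in Bub1b_R and 0.86 among arrays labelled Chek1_R (limma, adjusted p = 0.0056 and 0.0027). Since the control was at or near background this is no measured size, and it was 0.33 and 0.53 without background correction, past the threshold in neither.

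**Figure D2:**
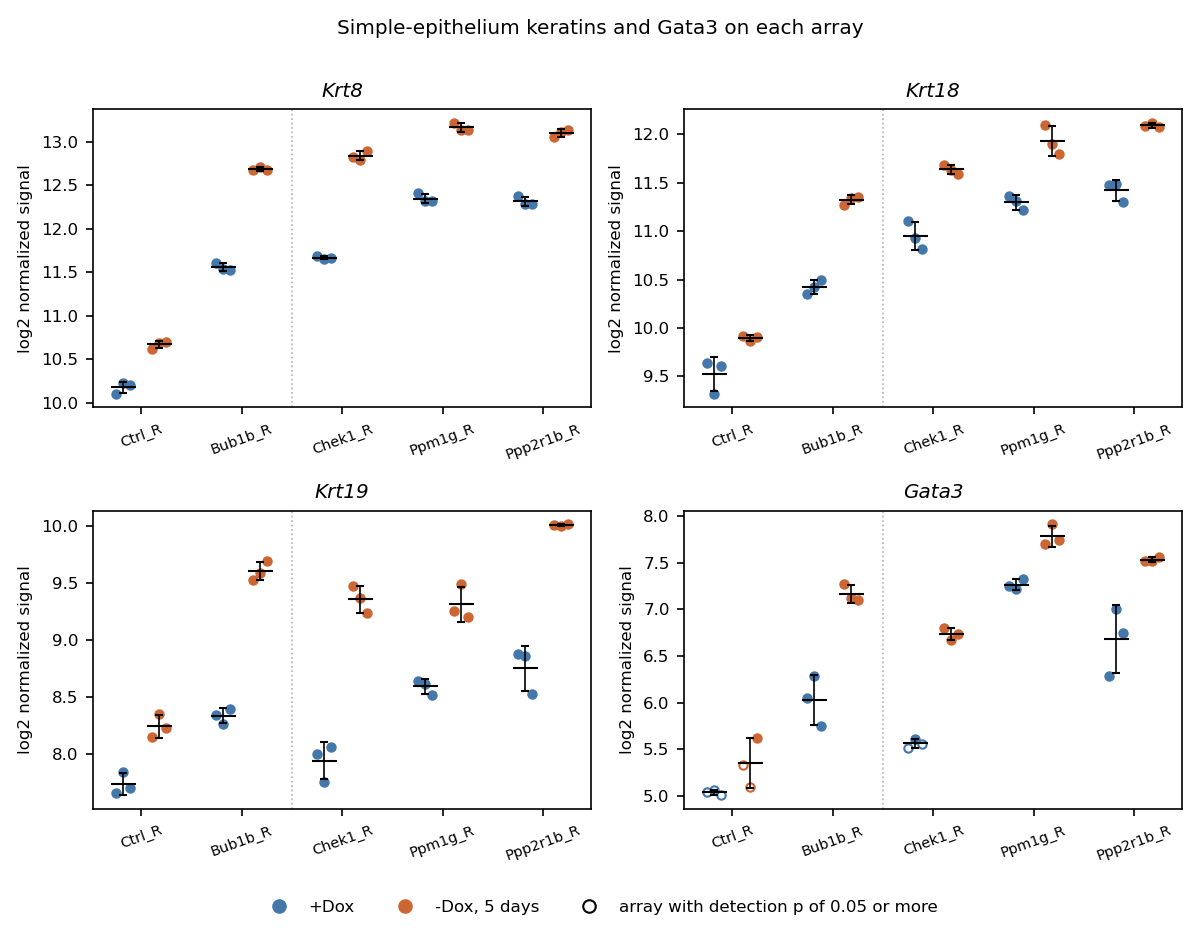
Log2 normalized signal of Krt8, Krt18, Krt19 and Gata3 on each of the 30 arrays, by clone (horizontal axis) and Dox (colour). Points are single arrays, open points were not detected, black marks give the mean and SD of 3 arrays, and the dotted line parts the 2 sets of arrays. Every -Dox group lies above the +Dox group of its clone, and for Krt8 and Krt18 all 24 arrays of the targeted clones lie above all 6 of Ctrl_R.

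Tfap2c, Ascl2 and Tead4 were not changed on withdrawal in any clone. Tfap2c encodes an AP-2 factor that also acts in germ cells, and its 3 probes were detected on all 30 arrays. At its brightest probe Tfap2c read 12.59, 12.59 and 12.48 in Bub1b_R with Dox and 12.13, 12.20 and 12.28 without. In Ppp2r1b_R it read 12.48, 12.58 and 12.50 with Dox and 12.26, 12.22 and 12.14 without. In both clones the -Dox arrays lay below the +Dox arrays, with changes of -0.35 and -0.31 (limma, adjusted p = 4.6e-05 and 2.6e-04), less than 1.5-fold. Chek1_R, Ppm1g_R and Ctrl_R gave changes of -0.08, 0.16 and -0.02 (limma, adjusted p = 0.33, 0.0485 and 0.915). The second probe gave -0.32, -0.24, 0.11, -0.36 and -0.01 in Bub1b_R, Chek1_R, Ppm1g_R, Ppp2r1b_R and Ctrl_R. The third gave -0.11, -0.18, 0.01, -0.31 and -0.03 in the same order. Thus at its brightest probe Tfap2c was slightly lower without Dox in Bub1b_R and Ppp2r1b_R and slightly higher in Ppm1g_R, each under 1.5-fold.

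Ascl2, a basic helix-loop-helix factor of an imprinted gene, was dim and was detected on 21 of 30 arrays. It read 6.55, 6.46 and 6.36 on the Ctrl_R +Dox arrays and 6.56, 6.44 and 6.72 on the Ctrl_R -Dox arrays. In Bub1b_R Ascl2 read 5.89, 5.67 and 5.89 with Dox and 5.69, 5.76 and 5.85 without. On the arrays labelled Chek1_R it read 5.34, 5.47 and 5.70 with Dox, detected on 1 of 3, and 5.28, 5.25 and 5.43 without, detected on 0 of 3. Ctrl_R was the highest clone, and within each clone the +Dox and -Dox arrays overlapped. In Ppm1g_R Ascl2 read 5.82, 5.93 and 6.23 with Dox and 5.93, 5.66 and 5.49 without, detected on 3 of 3 and 2 of 3. In Ppp2r1b_R it read 5.38, 5.20 and 5.84 with Dox and 5.68, 5.78 and 5.27 without, detected on 1 of 3 and 2 of 3. The changes on withdrawal were -0.05, -0.18, -0.30, 0.11 and 0.12 (SE 0.15) in Bub1b_R, Chek1_R, Ppm1g_R, Ppp2r1b_R and Ctrl_R, with adjusted p from 0.159 to 0.848 by limma.

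Tead4 was detected on all 30 arrays by 2 of its 3 probes and on 2 of 30 by the third, both of them arrays of Ctrl_R. At its brightest probe the level was 6.60 ± 0.11 with Dox and 7.02 ± 0.27 without (SD, n = 3 arrays each) among arrays labelled Chek1_R, a difference of 0.42 (limma, adjusted p = 0.0122). In Ppp2r1b_R it was 6.95 ± 0.24 with Dox and 6.56 ± 0.12 without, a difference of -0.39 (limma, adjusted p = 0.024). Neither reached 1.5-fold, and among arrays labelled Chek1_R the groups overlapped. Bub1b_R, Ppm1g_R and Ctrl_R gave -0.08, 0.14 and -0.17. The second probe gave -0.25, 0.14, -0.48, -0.13 and -0.15 for Bub1b_R, Chek1_R, Ppm1g_R, Ppp2r1b_R and Ctrl_R, so that the 2 probes disagreed in Ppm1g_R. The change among arrays labelled Chek1_R exceeded that of Ctrl_R by 0.59 at the brightest probe (limma, adjusted p = 0.0209), at the limit of 1.5-fold, and by 0.28 (adjusted p = 0.307) at the second. The excess at the brightest probe was 0.45 with an offset of 50, 0.44 as the mean of both probes and 0.49 to 0.57 without any 1 of 5 arrays (+Dox replicate 2 and -Dox replicates 1 and 3 of Chek1_R, and replicate 3 of both conditions of Ctrl_R), under 1.5-fold each time.

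**Figure D3:**
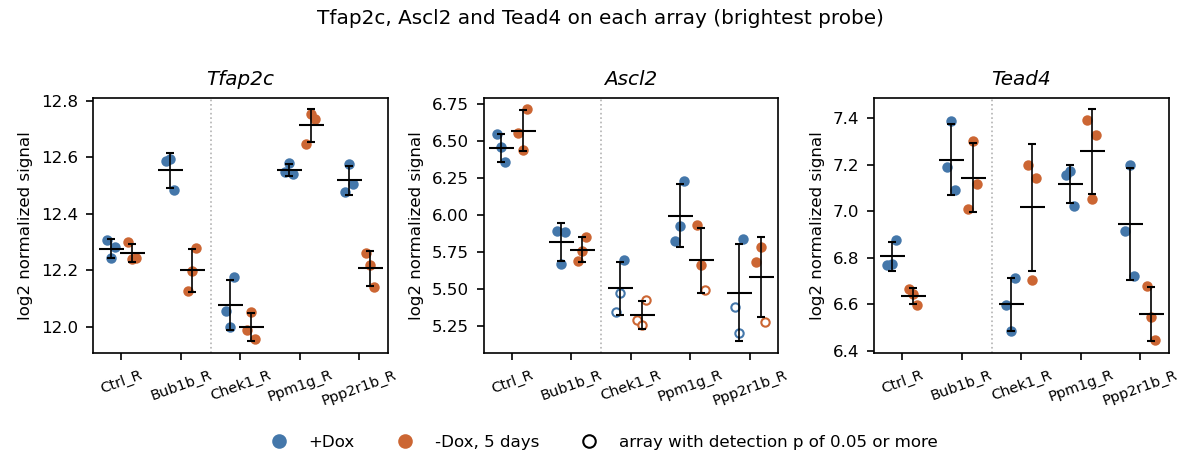
Log2 normalized signal of the brightest probes of Tfap2c, Ascl2 and Tead4 on each of the 30 arrays, drawn as for the keratins (points are arrays, open points were not detected, black marks give the mean and SD of 3 arrays). Ascl2 runs from 5.20 to 6.72, and Ctrl_R is the highest clone for Ascl2.

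Hand1 and Elf5 gave no call. The deposited signal of Hand1, after the authors' background subtraction, ran from -23.7 to 11.3 with a median of -5.1, and its lowest detection p-value was 0.112. The 3 Elf5 probes had medians of 0.85, -6.0 and -5.35, with highest values of 12.7, 10.8 and 6.4. None of these signals reached the lowest detected signal of its array. The 3 highest Hand1 signals were those of Bub1b_R -Dox, at 9.8, 11.3 and 7.8. On these arrays a level of these genes below the detection limit could not be seen.

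**Figure D4:**
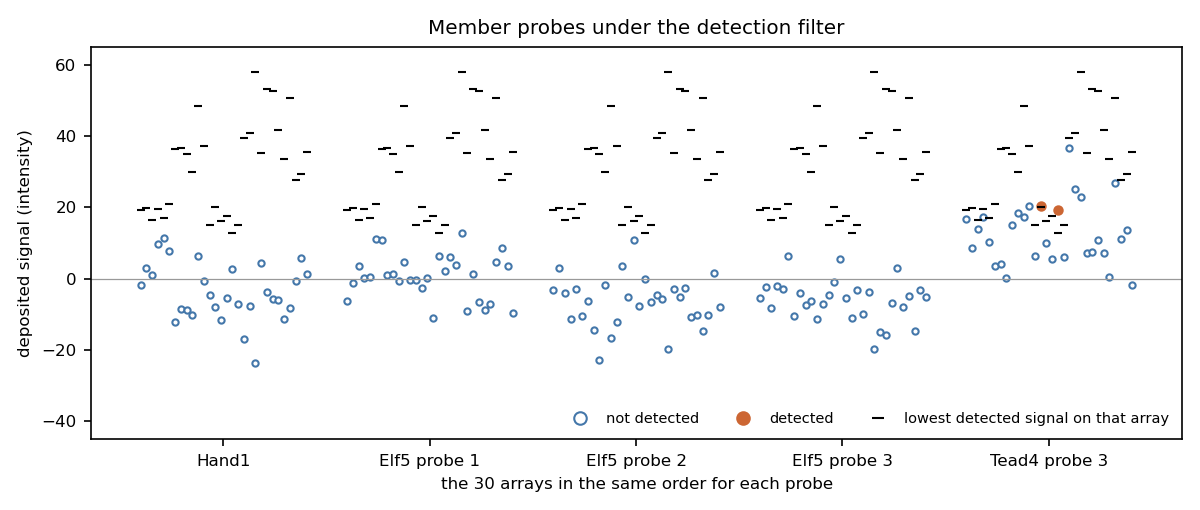
Deposited signal (intensity, vertical axis) of the 5 member probes that did not pass the filter, on the 30 arrays in the same order for each probe. Open points were not detected, filled points were detected, and each black mark is the lowest detected signal on the same array. Hand1 and Elf5 lie below the marks throughout, and the third Tead4 probe was detected on 2 arrays.

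The size of the change differed among the 4 targeted clones for some members. In a limma F-test of these differences 24.0% of all tested probes passed. Among the members Krt8 passed (adjusted p = 1.96e-04), and so did Krt19 (adjusted p = 0.00246), Gata3 (adjusted p = 0.0407), Tead4 at its brightest probe (adjusted p = 0.0090) and 2 of 3 probes of Tfap2c (adjusted p = 1.2e-04 and 0.0019). Krt18 (adjusted p = 0.272), Ascl2 (adjusted p = 0.436), the second Tead4 probe (adjusted p = 0.0645) and the third Tfap2c probe (adjusted p = 0.269) did not. Read against Ctrl_R, the change of 3 member probes differed in Bub1b_R (Krt8, Krt19 and Gata3), of 4 among arrays labelled Chek1_R (the same 3 and Tead4), of 0 in Ppm1g_R and of 1 in Ppp2r1b_R (Krt19). Of all tested probes 5.15%, 8.99%, 5.27% and 3.28% did so. For Ppm1g_R, 1 of the 10 member probes (Krt8) had an adjusted p under 0.05 with no fold limit. No share of all tested probes is given without the fold limit. Gata3 is counted here against a control at or near background, and its call was lost without background correction. These 4 comparisons share the 6 arrays of Ctrl_R.

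With Dox present, the clones already differed. Against Ctrl_R +Dox, 5 member probes were changed in Bub1b_R (12.7% of all tested probes, and 2 member probes with an offset of 50), 3 among arrays labelled Chek1_R (17.6%), 4 for Ppm1g_R (29.1%) and 5 in Ppp2r1b_R (28.3%). Krt8 was higher by 1.38, 1.49, 2.17 and 2.14 in Bub1b_R, Chek1_R, Ppm1g_R and Ppp2r1b_R, and Krt18 by 0.90, 1.42, 1.77 and 1.90. All 24 arrays of the targeted clones lay above all 6 of Ctrl_R for both keratins, as they did for 644 of all tested probes (4.25%). Of these, the value of Bub1b_R lies within 1 set by brightness. Krt19 was higher by 0.60 in Bub1b_R, 0.86 in Ppm1g_R and 1.02 in Ppp2r1b_R, and by 0.21 (limma, adjusted p = 0.081) among arrays labelled Chek1_R. The value in Bub1b_R was 0.53 with an offset of 50, 0.57 without the third +Dox array of Bub1b_R, and 0.56 and 0.58 without the first or the third +Dox array of Ctrl_R, under 1.5-fold each time. Gata3, not detected on any Ctrl_R +Dox array, was at least 1.41-fold higher in Bub1b_R, at least 3.34-fold in Ppm1g_R and at least 2.23-fold in Ppp2r1b_R (limma, adjusted p = 3.1e-06, 2.4e-12 and 4.8e-10). For each such bound, the dim group was set, array by array, to the lowest signal detected there or to the probe's own signal if that was higher. Ascl2 was lower, at -0.64 in Bub1b_R, whereas Ppm1g_R gave -0.46 (limma, adjusted p = 0.0104), under 1.5-fold. It was also called lower among arrays labelled Chek1_R and in Ppp2r1b_R. The fitted -0.95 and -0.98 there are no measured sizes, since Ascl2 was detected on 1 of 3 +Dox arrays of each. With an offset of 200 the Ascl2 calls in Bub1b_R, Chek1_R and Ppp2r1b_R were lost (-0.18, -0.24 and -0.25). The call of Ascl2 in Bub1b_R was lost with median scaling (-0.58), with an offset of 50 (-0.43) and without the second +Dox array of Bub1b_R (-0.56), and that of Gata3 in Bub1b_R with an offset of 50 (0.57).

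Without Dox the keratins and Gata3 were again above Ctrl_R. How far this widened the difference is the excess over Ctrl_R given above, which passed the test at 1.5-fold for Krt18 in no clone and for no member in Ppm1g_R. Against Ctrl_R -Dox, 5 member probes were changed in Bub1b_R (22.6% of all), 5 among arrays labelled Chek1_R (28.8%), 6 for Ppm1g_R (33.5%) and 6 in Ppp2r1b_R (33.7%). Krt8 was higher by 2.02, 2.17, 2.50 and 2.43 in the same order as above, and Krt18 by 1.43, 1.74, 2.04 and 2.20. Krt19 was higher by 1.36, 1.11, 1.07 and 1.76. Gata3 was also higher in all 4, over a control detected on 1 of 3 arrays, so no fold is given, and the calls in Bub1b_R and Chek1_R were lost with an offset of 200. The 4 clones were above Ctrl_R for each of these genes with no overlap of arrays. No share of all tested probes is given for such a separation of 3 from 3 arrays, here or between -Dox and +Dox arrays above. Ascl2 went the other way, at -0.81, -0.88 and -0.99 in Bub1b_R, Ppm1g_R and Ppp2r1b_R (limma, adjusted p = 6.9e-05, 1.8e-05 and 3.3e-06), and was at least 2.02-fold lower (limma, adjusted p = 1.4e-07) among arrays labelled Chek1_R. With an offset of 200 the Ascl2 calls were lost in Bub1b_R, Chek1_R, Ppm1g_R and Ppp2r1b_R (-0.23, -0.32, -0.24 and -0.27). In Bub1b_R the call was also lost with an offset of 50 (-0.55). Tead4 was 0.62 higher in Ppm1g_R at its brightest probe and 0.04 at the second. Tfap2c gave -0.66 in Ppp2r1b_R at its dimmest probe and -0.05 at its brightest, so that these probes disagreed. Each of these comparisons uses the same 3 control arrays.

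Neighbouring conditions were compared on the adjusted p alone, with no fold limit, and were chosen from the same means that were tested. Steps between Bub1b_R or Ctrl_R and Chek1_R, Ppm1g_R or Ppp2r1b_R cross the 2 sets by brightness, and set and clone cannot be told apart there. The order was not tried with median scaling. Ordered by level over the 10 conditions, Krt8 was highest in Ppm1g_R -Dox and Ppp2r1b_R -Dox (13.16 and 13.10), which did not differ (limma, adjusted p = 0.315), followed by Chek1_R -Dox (12.84) and Bub1b_R -Dox (12.69). The +Dox conditions of Ppm1g_R and Ppp2r1b_R came next (12.35 and 12.32, adjusted p = 0.656), then those of Chek1_R and Bub1b_R (11.67 and 11.56, adjusted p = 0.0903), and Ctrl_R closed the order at 10.67 without and 10.18 with Dox. For Krt18 the order was led by Ppp2r1b_R -Dox and Ppm1g_R -Dox (12.09 and 11.93, limma, adjusted p = 0.121) and ended with the same 2 conditions of Ctrl_R (9.89 and 9.52). Krt19 was led by Ppp2r1b_R -Dox alone (10.01), and at its lower end Chek1_R +Dox (7.94) and Ctrl_R +Dox (7.73) did not differ (limma, adjusted p = 0.0812). The mean deposited Krt19 signal without Dox was 826, 824, 811 and 714 in Ppp2r1b_R, Chek1_R, Ppm1g_R and Bub1b_R. The lead of Ppp2r1b_R is thus one of normalized levels. Gata3 ran from 7.78 in Ppm1g_R -Dox to 5.04 in Ctrl_R +Dox, and 3 of its 9 steps between neighbours passed the test. For Ascl2 the step from Ctrl_R +Dox (6.45) to Ppm1g_R +Dox (5.99) alone passed (limma, adjusted p = 0.0104), and for Tead4 none of the 9 did. In Tfap2c, which ran from 12.71 to 12.00, 2 steps passed.

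Across the 10 condition means, which share clones and arrays, Pearson's r was 0.983 between Krt8 and Krt18, 0.873 between Krt8 and Krt19, 0.940 between Krt8 and Gata3 and -0.804 between Krt18 and Ascl2. Between Krt8 and Tfap2c it was 0.117. On the 30 arrays after subtraction of each clone's mean, the last 2 pairs gave -0.235 and -0.566, against 0.959, 0.970 and 0.927 for Krt8 with Krt18, Krt19 and Gata3. The genes whose condition means were most like those of Krt8 were Slc7a6 (r = 0.991), Capn2 (0.989) and Dsp (0.988), the last of which encodes the desmosomal plaque protein desmoplakin. For Krt18 they were Cav1 (0.993), Dsp (0.989) and Soat1 (0.984), and for Gata3 Wdr45 (0.981), Erlin2 (0.973) and Unc5b (0.969). For Ascl2 they were Alox12b (0.978), BC099439 (0.973) and Rhox10 (0.971). After the mean of each clone was subtracted on the 30 arrays, Gpc3 (r = 0.980), Tpm4 (0.977) and Igfbp3 (0.972) came closest to Krt8, and Lgals3 (0.950), Anxa2 (0.946) and Tpm4 (0.945) to Gata3. Krt8 itself stood second for Krt18 (0.959) and for Krt19 (0.970).

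Other regulators of the lineage moved with them in part. Of 20 trophectoderm and trophoblast regulators, 19 were on the array and 16 passed the filter. On withdrawal 3 were higher and 0 lower in Bub1b_R, 4 and 1 among arrays labelled Chek1_R, 5 and 0 for Ppm1g_R and 3 and 1 for Ppp2r1b_R, where 2.94%, 4.49%, 2.30% and 2.77% of all tested probes were higher and 2.67%, 4.77%, 2.07% and 2.05% lower. In Ctrl_R 0 were higher (0.706% of all) and 1 was lower (Spry4, -0.59, with 0.396% of all lower). Cdx2, which opposes Pou5f1 in the choice of the trophectoderm, rose by 1.73, 3.97, 1.21 and 1.54 in Bub1b_R, Chek1_R, Ppm1g_R and Ppp2r1b_R, and gave 0.39 (limma, adjusted p = 0.11) in Ctrl_R. The mesoderm gene T, given below, rose in the same targeted clones, and to which cell type the rise of Cdx2 belongs was not tested. Eomes, a T-box factor of trophoblast stem cells and of mesoderm, was at least 2.53-fold higher in Bub1b_R and at least 2.08-fold among arrays labelled Chek1_R. In Ppm1g_R Eomes was changed, and it was detected on 1 of 3 +Dox and 3 of 3 -Dox arrays. Without background correction Eomes lost the call in Ppm1g_R, though its fitted change was 1.63, past 1.5-fold. In Ppp2r1b_R it counts among the changed genes but was detected on 0 of 6 arrays, and no fold is given. Bmp8b, a BMP ligand made by the extraembryonic ectoderm, rose by 0.65, 0.67, 0.82 and 0.75 in Bub1b_R, Chek1_R, Ppm1g_R and Ppp2r1b_R. The call of Bmp8b was lost with an offset of 50 in Bub1b_R and Chek1_R (0.53 in both), without the second -Dox array of Bub1b_R (0.57), and in Ppp2r1b_R under the test of the study's methods. With an offset of 200 it was lost in Bub1b_R, Chek1_R, Ppm1g_R and Ppp2r1b_R (0.28, 0.27, 0.37 and 0.35). Tfap2a was at least 1.61-fold higher and Fgfr2 was lower (-0.61) among arrays labelled Chek1_R, Id2 rose by 0.68 in Ppm1g_R, and Sox21 rose by 0.69 in Ppm1g_R and fell by 1.00 in Ppp2r1b_R. In Ppm1g_R the calls of Id2 (0.55) and Sox21 (0.37) were lost with an offset of 200, and that of Sox21 by the test of the study's methods. Spry4 and Fgfr2 were named after their values were seen. The same shares of all tested probes are the background for each list below. Itga7 was not changed, and Gcm1 and Dppa1 were undetected. The median change of the 16 was 0.16, 0.07, 0.22, 0.28 and 0.06 in Bub1b_R, Chek1_R, Ppm1g_R, Ppp2r1b_R and Ctrl_R, against medians of all probes between -0.02 and 0.00, and 0.16, 0.07, 0.12, 0.21 and 0.04 with genes below detection in a condition at their bound.

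Products of differentiated trophoblast were detected in part. Of 18 on the array, 10 passed the filter and 8 were undetected, among them Prl3d1 and Prl3b1 of giant cells, Tpbpa of the spongiotrophoblast, and Syna and Synb of the syncytiotrophoblast. Plac1 was at least 1.73-fold higher in Bub1b_R, 1.27-fold among arrays labelled Chek1_R and 1.25-fold in Ppm1g_R. Its call in Ppm1g_R was lost with an offset of 50 (0.56). With an offset of 200 the Plac1 calls in Bub1b_R, Chek1_R and Ppm1g_R were lost (0.27, 0.22 and 0.19). Rhox9 fell by 1.44 among arrays labelled Chek1_R and by 0.65 in Ppp2r1b_R, and Rhox6 was at least 1.62-fold lower on the former and at -0.90 in the latter. The Ppp2r1b_R calls of Rhox9, Rhox6 and Adm were lost when the arrays compared were fitted alone and under the test of the study's methods. In both cases the changes stayed at -0.65, -0.90 and 0.78, and the adjusted p did not pass. The call of Rhox9 was also lost with an offset of 50 (-0.58) and without the second +Dox (-0.54) or first -Dox array of Ppp2r1b_R (-0.52). Cdkn1c rose by 0.66 and Peg10, named after its value was seen, by 0.64 in Bub1b_R, Mmp9 by 0.73 in Ppm1g_R and Adm by 0.78 in Ppp2r1b_R. Thus 3 products were higher in Bub1b_R, 1 higher and 2 lower among arrays labelled Chek1_R, 2 higher in Ppm1g_R, 1 higher and 2 lower in Ppp2r1b_R, and 0 changed in Ctrl_R.

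Among 16 tested genes of epithelial junctions and adhesion, 2, 3, 1 and 2 were higher in Bub1b_R, Chek1_R, Ppm1g_R and Ppp2r1b_R, and 0 in Ctrl_R (2.94%, 4.49%, 2.30%, 2.77% and 0.706% of all). Lgals3, a lectin of epithelia, rose by 1.07, 1.60, 0.63 and 0.98 in that order, of which the value in Ppm1g_R was 0.50 with median scaling, under 1.5-fold. Dsp rose by 0.76, 0.97 and 0.63 in Bub1b_R, Chek1_R and Ppp2r1b_R and gave 0.42 in Ppm1g_R and 0.48 in Ctrl_R, under 1.5-fold. The call of Dsp in Ppp2r1b_R was lost by the test of the study's methods and without the second +Dox or the first -Dox array (0.58 each). Dsg2 rose by 0.61 among arrays labelled Chek1_R, a call lost with an offset of 50 (0.50) and without the third +Dox (0.52) or the third -Dox array (0.56). Krt42, a type I keratin, fell by 0.82 in Ppp2r1b_R. The other 12, among them Cdh1, Tjp1 and Cldn6, the brightest, were not changed on withdrawal in any clone, and Dsc2 was undetected.

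**Figure D5:**
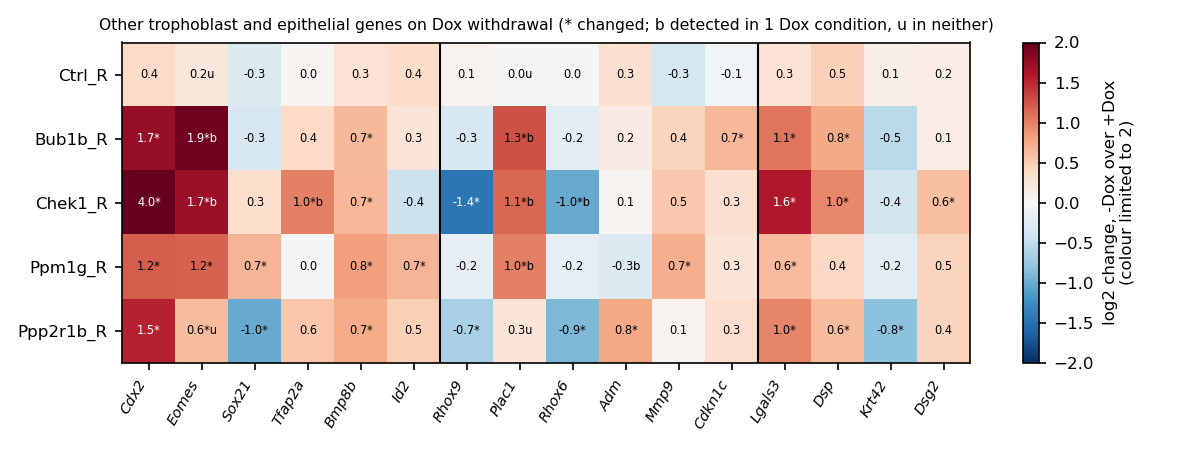
Log2 change on Dox withdrawal (colour and number) of the named trophoblast regulators (left block), trophoblast products (middle) and junction genes (right) in the 5 clones. An asterisk marks a changed gene, b a gene detected in 1 of the 2 Dox conditions and u a gene detected in neither. Cdx2, Bmp8b and Lgals3 are changed in all 4 targeted clones and not in Ctrl_R, with Lgals3 in Ppm1g_R under 1.5-fold with median scaling (0.50) and Bmp8b in Bub1b_R and Chek1_R with an offset of 50 (0.53 each).

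Markers of other cell types moved on withdrawal as well. Of 11 tested genes of early and extraembryonic mesoderm, 9, 9, 7, 5 and 1 were higher in Bub1b_R, Chek1_R, Ppm1g_R, Ppp2r1b_R and Ctrl_R. Of these calls 1, 4, 3, 1 and 0 were of a gene undetected in at least 1 of the 2 Dox conditions. Detection on 3 arrays sufficed for testing, so a gene of any list could enter through the condition where it was high. Median changes were 1.98, 1.73, 1.01, 0.45 and -0.02, or 1.98, 1.42, 0.84, 0.14 and 0 with genes below detection in a condition at their bound. T, the defining mesoderm gene brachyury, rose by 2.31, 4.44, 1.05, 1.90 and 0.75, and Bmp4, the brightest of the list, by 0.63, 1.42 and 0.71 in Bub1b_R, Chek1_R and Ppp2r1b_R. Mixl1, a homeobox gene of the primitive streak, was detected on 1 of 3 +Dox and 3 of 3 -Dox arrays of Bub1b_R, was at least 3.67-fold and 3.42-fold higher in Chek1_R and Ppm1g_R, and was undetected in Ppp2r1b_R and Ctrl_R. The summed signal of the mesoderm list went from 2384 to 8373 for Bub1b_R, 1579 to 8242 for Chek1_R, 4896 to 7555 for Ppm1g_R, 2209 to 3561 for Ppp2r1b_R and 843 to 900 for Ctrl_R (means of 3 arrays, +Dox to -Dox). These sums and those below are of deposited signal, not normalized between arrays, and are to be read within a clone, since the arrays differ in brightness. Foxf1 and Hoxb1 were undetected, and Eomes is on this list and on that of the regulators.

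Krt8, Krt18 and Krt19 are also made by the endoderm of the early embryo. Of 12 tested primitive and visceral endoderm genes, 5 were higher in Bub1b_R (Gata6, Sox17, Sox7, Pdgfra and Col4a1), 1 among arrays labelled Chek1_R (Pdgfra, with Lama1 and Amn lower), 2 in Ppm1g_R (Pdgfra and Col4a1), 1 in Ppp2r1b_R (Pdgfra) and 0 in Ctrl_R. Sox17, Sox7, Col4a1, Lama1 and Amn were named after their values were seen. Pdgfra rose by 1.44 in Bub1b_R and 1.20 in Ppp2r1b_R and was at least 4.36-fold and 1.92-fold higher in Chek1_R and Ppm1g_R. Gata6 rose by 1.29 in Bub1b_R and gave 0.35, 0.37 and 0.18 in Chek1_R, Ppm1g_R and Ppp2r1b_R. Gata4 was detected on at most 2 of 3 arrays of a condition and was not changed, and Foxa2, Afp and Ttr were undetected. The brightest endoderm gene, Sparc, gave 0.32, 0.32, 0.14, 0.47 and 0.16. The summed endoderm signal went from 6496 to 9892 in Bub1b_R and from 5278 to 5901 in Ctrl_R, and from 7526 to 9419, 10718 to 11178 and 8472 to 9288 in Chek1_R, Ppm1g_R and Ppp2r1b_R.

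Among genes of stratified epithelium, Krt14 rose by 0.95 in Ppm1g_R and was at least 1.99-fold and 1.20-fold higher among arrays labelled Chek1_R and in Ppp2r1b_R, and Krt10, the brightest of the list, gave -0.25 to 0.19. Sfn was 0.62 higher in Ctrl_R also, and Krt17 fell by 0.64 in Ppp2r1b_R. Both were named after their values were seen. Krt5, Krt1, Trp63 and Tfap2b were undetected. Of 6 tested genes 1, 3, 2, 1 and 1 were higher in Bub1b_R, Chek1_R, Ppm1g_R, Ppp2r1b_R and Ctrl_R, and the summed signal went from 1239 to 1572, 1286 to 2082, 2586 to 2824, 1092 to 1040 and 855 to 1014 in the same order. Tfap2a is on this list and on that of the regulators.

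Fibroblast markers bear on the feeder cells from which the ESCs were parted. Of 10 tested genes 3, 4, 4, 3 and 0 were higher in Bub1b_R, Chek1_R, Ppm1g_R, Ppp2r1b_R and Ctrl_R. Col1a1 rose by 1.06, 0.91 and 1.03 in Chek1_R, Ppm1g_R and Ppp2r1b_R and gave 0.58 in Bub1b_R, and Vim rose by 0.83, 1.58 and 0.75 in Bub1b_R, Chek1_R and Ppp2r1b_R. Acta2, the brightest, rose by 0.72 in Ppm1g_R and gave 0.33, -0.37, -0.35 and -0.21 elsewhere, and Thy1 fell in Chek1_R and Ppm1g_R (-0.81 and -0.61). Thy1 was named after its values were seen. Col1a2, Postn, Lum and S100a4 were undetected. The summed fibroblast signal went from 10772 to 16028 in Bub1b_R, 11454 to 14693 in Chek1_R, 11056 to 15177 in Ppm1g_R, 7510 to 7492 in Ppp2r1b_R and 4740 to 4574 in Ctrl_R. On the normalized scale, 7, 3, 4 and 2 of the 10 were higher than in Ctrl_R with Dox and 0, 0, 1 and 1 lower in Bub1b_R, Chek1_R, Ppm1g_R and Ppp2r1b_R, with medians of 0.70, 0.22, 0.32 and 0.08, or 0.70, 0.14, 0.15 and 0 with genes below detection in a condition at their bound. Of all probes 12.7%, 17.6%, 29.1% and 28.3% were changed in either direction there. Without Dox 7, 7, 8 and 4 were higher and 1 was lower in each, with medians of 1.04, 0.84, 0.97 and 0.49, or 0.98, 0.84, 0.80 and 0.49 with such genes at their bound, beside 22.6%, 28.8%, 33.5% and 33.7% of all probes. Whether feeder cells had a part in the keratin levels was not tested.

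The 10 markers of ESCs were detected on all 30 arrays. Dppa5a, the brightest, gave -0.04 to 0.13 on withdrawal at levels near the top of the scale (means of 15.15 to 15.43), and nothing is read from its small differences. Pou5f1 gave -0.16, -0.31, -0.48, -0.53 and -0.19 and Nanog -0.35, 0.04, -0.11, -0.40 and 0.17 in Bub1b_R, Chek1_R, Ppm1g_R, Ppp2r1b_R and Ctrl_R, none of which reached 1.5-fold. Genes that fell numbered 2, 1, 0, 4 and 0, with list medians of -0.43, -0.10, -0.12, -0.53 and -0.17, and Tcl1 fell by 0.87 in Bub1b_R and 0.97 in Ppp2r1b_R. The other falling genes were Utf1 in Bub1b_R, Chek1_R and Ppp2r1b_R (-0.63, -0.80 and -0.68) and Esrrb and Zfp42 in Ppp2r1b_R (-0.83 and -0.80), named after their values were seen. Against Ctrl_R without Dox, 3, 2, 1 and 7 of the 10 were lower and 0, 1, 3 and 0 higher in Bub1b_R, Chek1_R, Ppm1g_R and Ppp2r1b_R, with medians of -0.42, -0.32, -0.11 and -1.06, beside 22.6%, 28.8%, 33.5% and 33.7% of all probes changed in either direction. With Dox 5 of the 10 were already lower in Ppp2r1b_R (median -0.49), where 28.3% of all probes were changed. The summed ESC signal went from 79128 to 73823 in Bub1b_R, 87015 to 83801 in Chek1_R, 89711 to 72629 in Ppm1g_R, 52397 to 40162 in Ppp2r1b_R and 73423 to 66036 in Ctrl_R. The part of these markers in the changes of the keratins and Gata3 was not tested.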

How the data were processed

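The authors deposited 1 table of 25697 probes with a signal (intensity, not normalized between arrays) and a detection p-value for each of 30 Illumina Mouse WG8-V2 arrays. The submitters' processing notes name lumi; its version and settings are not given in the sources used here. On 2 arrays 60 detection p-values stood as dates in the table, and these were restored from the cell or from the probe of nearest signal.

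Signals were background-corrected from the detection p-values (offset 16), quantile-normalized and taken to log2, as neqc does (limma 3.58.1, R 4.3.3). Of all probes, 15151 with a detection p-value under 0.05 on at least 3 arrays were tested in 1 limma fit of 10 condition means (20 residual degrees of freedom), with Benjamini-Hochberg adjustment, and the fit was tested on simulated data. Depth has no counterpart on arrays, and 3 arrays per condition limit the precision. A gene with several probes is given by all of them, elsewhere by its brightest. Named from each pathway list were at most 6 genes with the largest change past the threshold, from each marker list the brightest, the defining pair and the most changed gene, the 4 targeted genes, Cdx2, Eomes, Prl3d1 and Itga7, and for each member the 3 genes most correlated with it.

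The members, lists and letters searched were chosen with earlier results of these data known. Alternatives were no background correction, offsets of 50 and 200, median scaling, other filters and fold limits, the methods' t-test, a replicate block, the mean of a gene's probes, fits on the arrays compared alone, and each array left out in turn. The offset of 200 was chosen after the data were seen.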

Additional observations from a re-analysis of the deposited data

Results flagged for a closer look

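The change on Dox withdrawal differed among the 4 targeted clones by the limma F-test for 6 of the 10 member probes, where 24.0% of all tested probes passed. The second Tead4 probe did not pass (adjusted p = 0.0645). The adjusted p was 1.96e-04 for Krt8, 0.00246 for Krt19, 0.0407 for Gata3 and 0.0090 for Tead4 (brightest probe), and 1.2e-04 and 0.00192 for the 2 brighter probes of Tfap2c. The rise of Krt8 was 1.13 and 1.17 in Bub1b_R and Chek1_R and 0.82 and 0.79 in Ppm1g_R and Ppp2r1b_R, while Tfap2c ran from -0.35 to 0.16.

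The change also differed from that of Ctrl_R by more than 1.5-fold (limma, interaction contrast) for Krt8 by 0.64 in Bub1b_R and 0.68 among arrays labelled Chek1_R. For Krt19 it differed by 0.76 in Bub1b_R, 0.91 among arrays labelled Chek1_R and 0.75 in Ppp2r1b_R. For Tead4 it differed by 0.59 among arrays labelled Chek1_R. For Gata3 the fitted values were 0.83 in Bub1b_R and 0.86 among arrays labelled Chek1_R, which are no measured sizes, since Gata3 was detected on 0 of 3 Ctrl_R +Dox and 1 of 3 Ctrl_R -Dox arrays. Without background correction its values were 0.33 and 0.53, past the threshold in neither clone. The second Tead4 probe gave 0.28 (limma, adjusted p = 0.307), and at the brightest the call was lost with an offset of 50 (0.45), as the mean of both probes (0.44) and without any 1 of 5 arrays (0.49 to 0.57). Each condition had 3 arrays, so single arrays were not tested as outliers.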

How the results depend on the processing

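The rise of Krt8 and Krt19 on withdrawal in the 4 targeted clones kept its direction and call under each alternative with the 1.5-fold limit, except Krt19 in Ppm1g_R at an offset of 200 (0.53). At that offset Gata3 lost its call in all 3 clones where it rose. Of 1959 recomputed member changes, 1888 kept direction and call, 45 lost the call, 8 gained one and 18 changed sign. The cause of these shifts was not tested.

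Counts of changed member probes moved as follows. No share of all tested probes is given for these alternatives, so the counts cannot be read against all probes. With no fold limit they were 6, 8 and 3 on withdrawal in Ppm1g_R, Ppp2r1b_R and Ctrl_R, 6, 1 and 4 for the excess over Ctrl_R in Bub1b_R, Ppm1g_R and Ppp2r1b_R, 9 against Ctrl_R without Dox in Chek1_R, and 8, 7 and 9 with Dox in Bub1b_R, Chek1_R and Ppm1g_R. At 2-fold they were 0 and 1 on withdrawal in Ppm1g_R and Ppp2r1b_R, 0 for the excess in Bub1b_R, Chek1_R and Ppp2r1b_R, and 1 against Ctrl_R with Dox in Bub1b_R. With an offset of 50 the last count was 2. With an offset of 200 the excess in Chek1_R was 2, the counts without Dox were 3 in Bub1b_R and 3 in Chek1_R, and those with Dox 2 in Bub1b_R and 3 in Ppp2r1b_R. Without background correction 1 probe was changed on withdrawal in Ctrl_R (Gata3, 1.07), and 0 neighbouring levels of Ascl2 differed. Leaving out single arrays gave 1 to 2 for the excess in Ppp2r1b_R (2 without the second +Dox array of Ppp2r1b_R or the third -Dox array of Ctrl_R). By the methods' t-test with adjustment, Gata3 in Ppp2r1b_R lost its call at an unchanged 0.85 and the count there was 3. In Ctrl_R that test also called 0 on withdrawal, with 4 at an unadjusted p under 0.05.

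These signs turned. Without background correction the excess of Gata3 was -0.50 in Ppm1g_R and -0.089 in Ppp2r1b_R, and that of Ascl2 was 0.10 in Ppp2r1b_R. With median scaling Tfap2c was 0.039 on withdrawal in Chek1_R, 0.044 for its excess, 0.19 in Bub1b_R against Ctrl_R without Dox and -0.17 in Ppp2r1b_R with Dox. Median scaling moved the median of all probes by over 0.1 against Ctrl_R only, to 0.10 in Bub1b_R without Dox and to -0.18 in Ppp2r1b_R in both conditions. With the mean of a gene's probes Tfap2c was -0.046 in Ppp2r1b_R with Dox, and Tead4 was -0.17 on withdrawal in Ppm1g_R, -0.0029 and -0.0098 for the excess in Bub1b_R and Ppm1g_R, and -0.047 in Ppp2r1b_R with Dox. Leaving out single arrays gave -0.028 to 0.29 for Ascl2 on withdrawal in Ppp2r1b_R, -0.15 to 0.17 for its excess, and -0.16 to 0.0039 for Tead4 in Bub1b_R. None of these values had passed the threshold.

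Further calls lost were Tead4 in Ppm1g_R without Dox (0.49 at an offset of 50), Ascl2 in Bub1b_R (-0.55 without and -0.43 with Dox, offset 50) and Gata3 in Bub1b_R with Dox (0.57, offset 50). At an offset of 200 Ascl2 lost each of its calls against Ctrl_R. At that offset calls with Dox were also lost for Gata3 in Ppp2r1b_R (0.41) and Krt19 in Ppm1g_R (0.52). The excess of Gata3 was then 0.34 in Bub1b_R and 0.27 in Chek1_R, under 1.5-fold. Among other named genes, calls on withdrawal were also lost in Ppm1g_R for Lgals3 (median scaling), Plac1 (offset 50), Eomes (no background correction) and Sox21 (the methods' t-test), for Dsg2, Dsp, Bmp8b, Eomes, Rhox6, Rhox9 and Adm in 1 or more other clones, and at an offset of 200 for further genes. Same-numbered arrays correlated by -0.08 to 0.13, so the numbers do not pair the arrays, and a fit with the number as a replicate block gave 4 changed member probes on withdrawal in Bub1b_R, as without it, and changed none of 172 results. Signal over background limits Gata3, Ascl2, Hand1 and Elf5.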
